A study of Rattus norvegicus with 48 samples.

Results

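The lungs compared here were taken 1 day after male Sprague-Dawley rats had finished inhaling a mixture of fracking sand dust and diesel particles, and they are set against lungs of rats that had breathed filtered air for the same hours. The exposed rats received 30 mg/m3 of fracking sand dust (the mineral dust set free when sand is handled at gas wells) together with 1.0 mg/m3 of diesel particles, and both groups spent 6 hours per day for 4 days in whole-body chambers. Members were chosen by their table and column names, which gave 8 exposed and 8 air libraries, 16 of the 48 in the series; the rest were taken at 7 and 27 days. Both groups were outbred rats, with no genetic change or other treatment named in the labels, which give no ages. Dust and diesel were given only together, so their parts in any difference cannot be told apart.

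A piece of whole lung was sequenced for polyadenylated RNA, so each value mixes all cell types of that piece, and fewer cells of a type cannot be told apart from less RNA per cell. Library totals ran from 11340284 to 13562855 counts and were 5.41% higher in exposed than in air libraries (p = 0.0364 in a two-sided exact permutation test, or 0.182 after adjustment over 5 measures of library content). Lung markers were abundant in every library. The surfactant protein gene Sftpc ran from 7581 to 9891 CPM (counts scaled to a common library size) in exposed and from 7069 to 9228 CPM in air libraries, and Ager, of alveolar type 1 cells, from 1795 to 2369 CPM in exposed and from 1933 to 2569 CPM in air libraries. Heart muscle genes varied widely in both groups and lay higher in exposed libraries at the median, and the source of their RNA was not tested. All 9 measured members had a log2 fold change above 0, with a median of 0.52, the largest median of the 45 lists, and adjusted p of 0.695 to 0.948 by edgeR. Their level was also summed over the 11 of 12 listed genes found in the data, 9 of them measured. That sum had a median of 224 CPM in exposed and 115 CPM in air libraries. It ran from 42.7 to 436 CPM in exposed and from 34.2 to 425 CPM in air libraries, and Nppa was at 0 in all 16.

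Exposed libraries FSDE_257 and FSDE_260, named here by group and animal number, were much closer to each other than any other pair within a group. Over 13506 genes their median squared count difference was 1.45 times counting noise, against 2.61 in the next closest such pair, AIR_253 and AIR_254. Exposed libraries were not paired with air libraries in this measure. They differed by more than counting noise, and whether they came from separate animals was not tested. Results are therefore given with the 16 libraries as deposited and again with the counts of this pair summed. Each mean ± SD of exposed lungs uses the pair's average as 1 of 7 replicates. With the pair averaged, library totals were 5.89% higher in exposed than in air libraries (p = 0.0221 in the exact permutation test, 0.110 after adjustment).

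Inhaled particles that reach the alveoli are taken up by alveolar macrophages, and the thin capillary endothelium lies directly under the alveolar wall. Endothelial cells signal to each other through Notch, a receptor that is cleaved after binding a ligand such as Dll4 on a neighbouring cell and then switches on Hes and Hey genes. Diesel soot carries polycyclic hydrocarbons, ligands of the aryl hydrocarbon receptor, which induces Cyp1a1, and airway club cells line the small bronchi with the secreted protein Scgb1a1.

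In the exposed lungs 4 genes fell and no gene rose. They were Dll4, the Notch ligand of arterial and capillary endothelium, Slc29a1, the equilibrative transporter that carries adenosine across cell membranes, Sh3bp5, a guanine nucleotide exchange factor for the recycling GTPase Rab11, and Ehd4, an EH-domain ATPase of endosomes. The test was edgeR's quasi-likelihood test with Benjamini-Hochberg adjustment over 14314 genes and a threshold of 0.05, so that 0.0279% of the genes tested were called, and all of the calls were lower in exposed lungs. At an unadjusted p under 0.05 there were 660 higher genes (4.61% of those tested) and 581 lower genes (4.06%), together 1241 (8.67%) where 716 would be expected by chance. With libraries FSDE_257 and FSDE_260 summed, 0 of 14372 genes passed in edgeR and 1005 had an unadjusted p under 0.05 (6.99%).

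Upstream sequence is shown for the called genes because these 4 were lower together. It is the 250 bases before the annotated start, from RefSeq on build GRCr8, read 5′ to 3′ on the gene's strand, with each GGAA or its complement TTCC, the core that ETS factors such as endothelial Erg recognise, in capitals. The genes are Slc29a1 at chr9:22896849-22897098 on the plus strand, Sh3bp5 at chr16:6654712-6654961 on the minus strand and Ehd4 at chr3:127575764-127576013 on the minus strand, and 3 of the 4 called genes matched the table by symbol, Dll4 not being among them.
Slc29a1: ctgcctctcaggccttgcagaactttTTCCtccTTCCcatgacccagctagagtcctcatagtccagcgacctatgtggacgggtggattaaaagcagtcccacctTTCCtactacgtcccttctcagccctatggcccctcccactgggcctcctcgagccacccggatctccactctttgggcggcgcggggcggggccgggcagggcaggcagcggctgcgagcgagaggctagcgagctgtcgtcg
Sh3bp5: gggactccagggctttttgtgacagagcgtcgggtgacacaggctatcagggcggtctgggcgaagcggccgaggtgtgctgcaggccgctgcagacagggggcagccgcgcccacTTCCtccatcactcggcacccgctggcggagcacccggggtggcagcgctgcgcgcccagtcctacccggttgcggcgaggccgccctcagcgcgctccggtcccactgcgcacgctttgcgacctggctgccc
Ehd4: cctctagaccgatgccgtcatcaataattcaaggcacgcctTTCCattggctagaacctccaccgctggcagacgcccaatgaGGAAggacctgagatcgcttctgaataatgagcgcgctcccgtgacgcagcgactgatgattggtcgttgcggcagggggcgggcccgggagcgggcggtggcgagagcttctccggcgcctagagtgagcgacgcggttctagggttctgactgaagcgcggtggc
The core occurred 3 times upstream of Slc29a1, 1 time upstream of Sh3bp5 and 2 times upstream of Ehd4, on either strand. Of 33469 upstream regions of this length 93.2% hold it, with a median of 3 matches, so its presence does not set these genes apart. The aryl hydrocarbon receptor core GCGTG was found 1 time each upstream of Sh3bp5 and Ehd4 and not upstream of Slc29a1, and 25.9% of all regions hold it. The antioxidant response core TGACNNNGC was found 1 time in each of the 3, against 10.1% of all regions, and TTCCNGGAA, a STAT motif that contains the ETS core, in none, against 1.07%. The 3 regions were rich in G and C at 63.6% (Slc29a1), 72.0% (Sh3bp5) and 62.0% (Ehd4), where the median over all regions was 51.2%.

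Dll4 (ENSRNOG00000014011) showed the largest of the 4 called differences. Its level was 99.3 CPM in the lowest exposed library, 128 CPM at the median and 138 CPM in the highest, against 149, 163 and 209 CPM in air libraries. The 2 groups did not overlap, and the lowest value, in exposed library FSDE_263, stood apart from the other 7. Means were 124 ± 12.9 CPM in exposed lungs (SD, n = 7) and 168 ± 19.6 CPM in air lungs (SD, n = 8), which puts the exposed mean at 74.0% of the air mean. The log2 fold change was -0.42 ± 0.072 (SE, adjusted p = 0.0435 by edgeR, and 0.0877 with the pair summed).

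Slc29a1 (ENSRNOG00000019752) ran from 213 to 262.9 CPM in exposed libraries, with a median of 238 CPM, and from 260.999 to 316 CPM in air libraries, with a median of 295.8 CPM. The groups overlapped by a narrow margin, since exposed library FSDE_259, the highest of its group, lay just above air library AIR_254, the lowest of its own. The log2 fold change was -0.30 ± 0.048 (adjusted p = 0.0429 by edgeR, and 0.0877 with the pair summed).

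Sh3bp5 (ENSRNOG00000052391) was at 88.4 CPM in the lowest, 94.9 CPM in the median and 107 CPM in the highest exposed library, against 110.1, 115 and 124 CPM in air libraries. The groups did not overlap. The exposed mean was 97.6 ± 6.99 CPM and the air mean 117 ± 5.04 CPM, with a log2 fold change of -0.27 ± 0.044 (adjusted p = 0.0429 by edgeR, and 0.0877 with the pair summed).

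Ehd4 (ENSRNOG00000007584) ran from 507 to 567 CPM in exposed libraries and from 579.9 to 636 CPM in air libraries, again with no overlap. The medians were 546 CPM in exposed and 625 CPM in air libraries. Its log2 fold change of -0.20 ± 0.035 was the smallest of the 4 (adjusted p = 0.0435 by edgeR, and 0.0894 with the pair summed). No called gene reached a 1.5-fold difference.

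**Figure D1:**
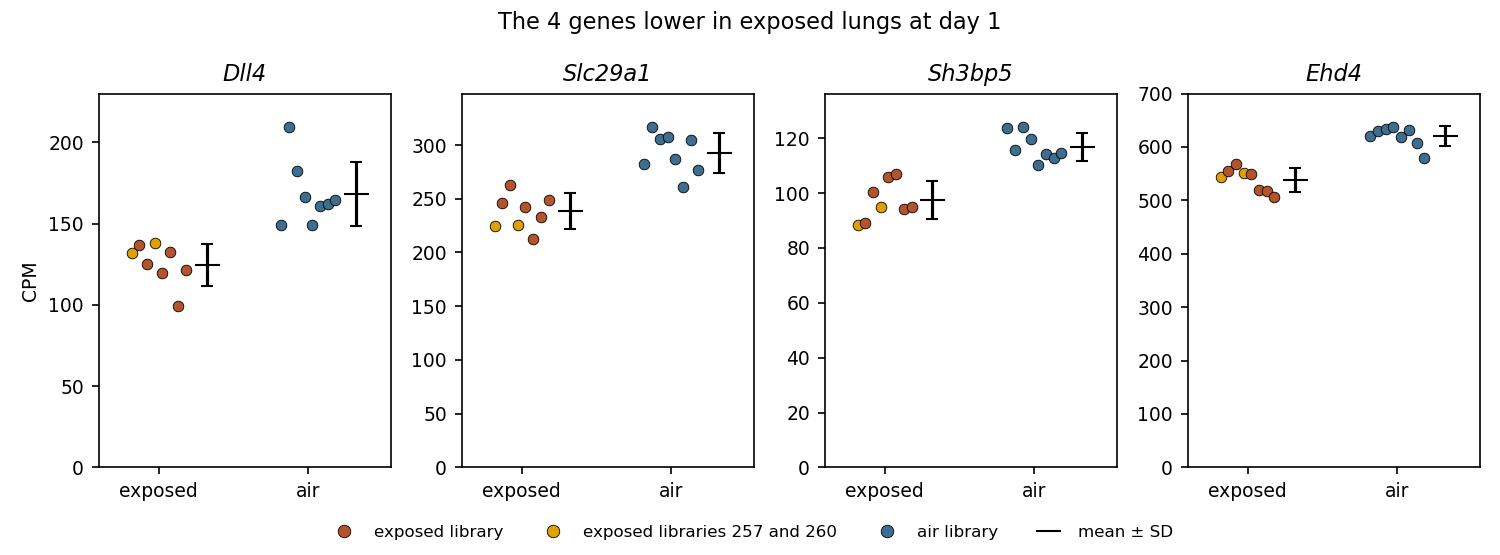
Level of each called gene in CPM (y axis, from 0) in the 8 exposed and 8 air libraries at day 1, one point per library, with the mean and SD beside each group (n = 7 exposed, with libraries FSDE_257 and FSDE_260 in yellow averaged, and n = 8 air). For Dll4, Sh3bp5 and Ehd4 every exposed point lies below every air point, and for Slc29a1 the exposed maximum of 262.9 CPM lies just above the air minimum of 260.999 CPM.

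Separation of the groups was also counted over all genes. In 8 genes (0.0559% of those tested) every exposed library lay below every air library, and in 0 genes did every exposed library lie above. Besides Dll4, Sh3bp5 and Ehd4 these were Adra2b, an alpha-2 adrenergic receptor; Eny2, a subunit of the SAGA and TREX-2 complexes; Ica1, an islet cell autoantigen; Zfp395, a zinc finger protein; and Trnau1ap, a protein that takes part in selenocysteine incorporation. None of those 5 was called by edgeR, and DESeq2 called Adra2b (adjusted p = 0.00459), Eny2 (adjusted p = 0.0397) and Ica1 (adjusted p = 0.0492) lower. Adra2b was at 3.78 ± 0.583 CPM in exposed and 5.84 ± 0.980 CPM in air lungs (log2 fold change -0.65 ± 0.131, adjusted p = 0.138 by edgeR), and Eny2, with the narrowest gap, reached 38.89 CPM in the highest exposed library and 38.91 CPM in the lowest air library (adjusted p = 0.190 by edgeR). Zfp395 and Trnau1ap were chosen after their values were seen.

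The number of calls depended on single libraries and on the tool. Leaving out 1 library at a time gave 0 calls in 9 of the 16 fits, 17 when exposed library FSDE_259 was left out (13 higher, 4 lower), 7 for FSDE_264 (2 higher, 5 lower), and 1 to 3 without air libraries AIR_253, AIR_254 or AIR_256 or exposed libraries FSDE_261 or FSDE_262. Slc29a1 and Sh3bp5 each passed in 5 of the 16 fits, Ehd4 in 3 and Dll4 in 2, while their log2 fold changes stayed within -0.33 to -0.28, -0.29 to -0.25, -0.22 to -0.19 and -0.44 to -0.37. DESeq2 called 42 genes (0.293% of those tested), 23 of them higher (0.161%) and 19 lower (0.133%), among them all 4 that edgeR called. Its higher calls included Ccl6 (adjusted p = 1.56e-05 by DESeq2), Mpeg1, Hc, C3, Dnah5, Cxcr1, Lcn2, Gpnmb and Ctsd, and its lower calls Nostrin, Adra2b, Scgb1a1 and Cyp1a1, whose levels are given in the paragraphs on their cell types.

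**Figure D2:**
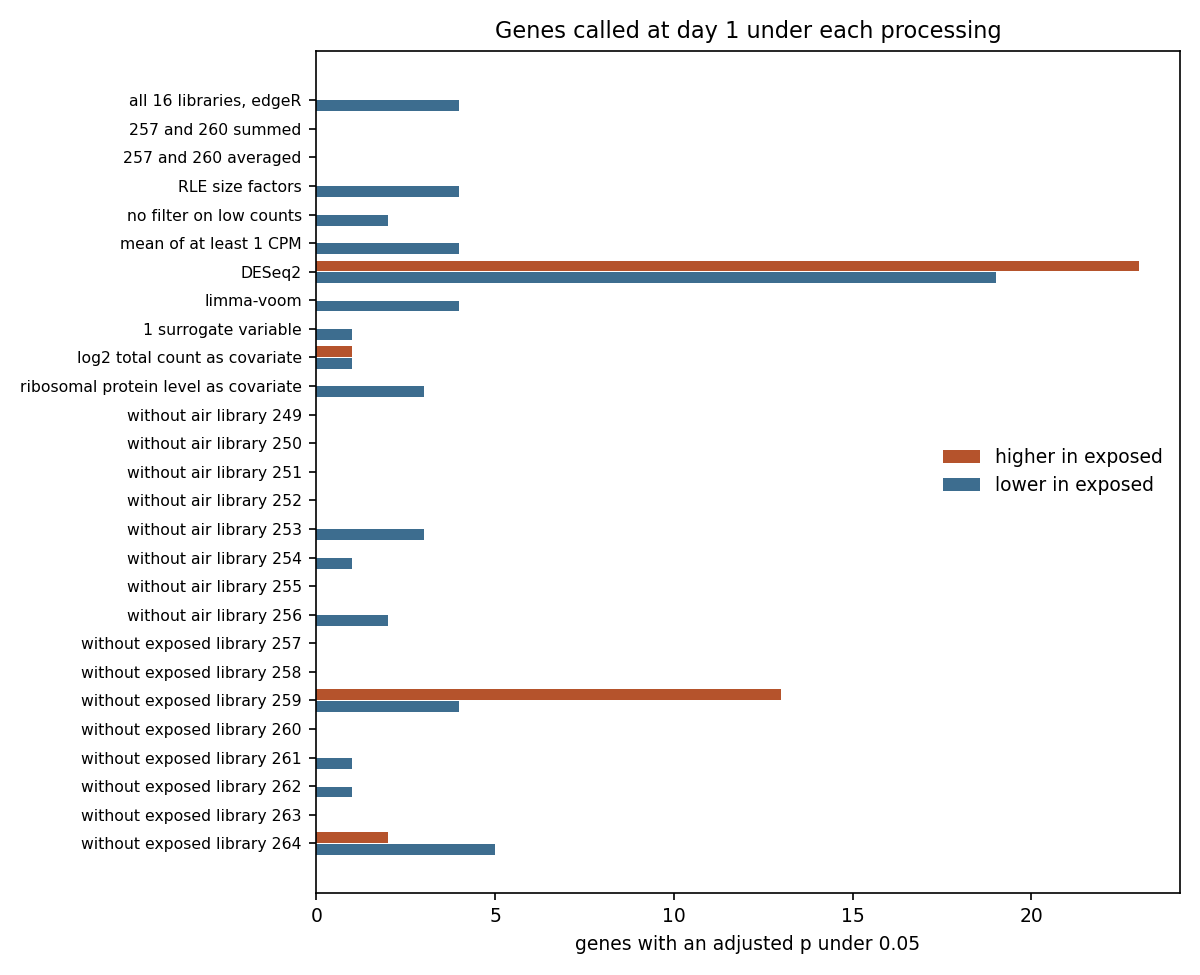
Number of genes with an adjusted p under 0.05 at day 1 (x axis) under each processing (y axis), split into genes higher (upper bar) and lower (lower bar) in exposed lungs. The 16 libraries as deposited gave 4 lower genes, the summed pair gave 0, DESeq2 gave 42, and leaving out exposed library FSDE_259 gave 17.

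Genes of endothelial cells, the cells in which Dll4 is best known, lay mostly below 0, though edgeR called no member of the 3 endothelial lists with all 16 libraries. DESeq2 called 1 member, Nostrin (adjusted p = 0.00120). Of the pan-endothelial markers 13 of 15 had a log2 fold change below 0 (median -0.10), of capillary and aerocyte markers 12 of 13 (median -0.13), and of artery, vein and lymphatic markers 12 of 13 (median -0.10), where 49.1% of all genes tested lay below 0 and the median of all was 0.0019. At an unadjusted p under 0.05 the 3 lists had 5, 4 and 5 lower members and 0 higher ones. Of all genes tested 4.06% were lower and 4.61% higher at that threshold. With the pair summed the medians were -0.08, -0.10 and -0.11. The lists share genes, so their counts are not separate. Plvap is in the pan-endothelial and capillary lists, and Sox17 in the pan-endothelial and artery lists. Of the capillary list, Kit is also in the mast cell list and Car4 in that of alveolar macrophages.

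The endothelial genes with the smallest p were Nostrin, an endothelial protein that binds and traffics the nitric oxide synthase Nos3; Aplnr and Apln, the apelin receptor and its ligand; and the arterial ligand Efnb2. Nostrin was at 169 ± 13.4 CPM in exposed and 197 ± 8.93 CPM in air lungs, with 8 of 8 exposed libraries below the air mean and groups that overlapped (log2 fold change -0.23 ± 0.045, adjusted p = 0.134 by edgeR). Aplnr had a log2 fold change of -0.17 ± 0.050 (adjusted p = 0.345 by edgeR) and Apln one of -0.24 ± 0.073 (adjusted p = 0.367 by edgeR), while Nos3 itself stood at -0.20 with an unadjusted edgeR p of 0.031. The transcription factors Sox17 (-0.23) and Erg (-0.16) and the receptors Eng (-0.17) and Kdr (-0.12) lay on the same side, and Cldn5, the tight junction protein of endothelium, had a log2 fold change of 0.06. Summed over the list, capillary and aerocyte markers ran from 3256 to 3571 CPM in exposed and from 3446 to 3878 CPM in air libraries, and none of the 8 exposed sums reached the air mean. Exposed library FSDE_259 stood apart on the pan-endothelial sum, at 8138 CPM, where the other 7 exposed libraries ran from 6845 to 7551 CPM and the air libraries from 7264 to 8218 CPM.

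The Notch list did not lie to 1 side. Of its 18 measured members 9 were above 0 and 9 below, and Dll4 was the only one called. Among ligands, Jag1 (0.03), Jag2 (0.12) and Dll1 (0.00) had log2 fold changes near 0. Among receptors, Notch1 (-0.10) and Notch4 (-0.12), both found in endothelium, lay below 0, whereas Notch3, the receptor of mural cells, was at 0.23 ± 0.072 (adjusted p = 0.398 by edgeR). The target Hes1 was at -0.16 ± 0.062 (adjusted p = 0.480 by edgeR), and the targets Hey1 (-0.04), Hey2 (-0.11) and Heyl (0.01) gave no larger difference.

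Genes that share a pathway or family with the other called genes went both ways. Among 13 measured genes of adenosine and nucleoside handling, Slc29a1 was the only one called, 8 lay below 0 and the median log2 fold change was -0.01, over a range from -0.99 for the adenosine receptor Adora3 (adjusted p = 0.808 by edgeR) to 0.42 for the receptor Adora1 (adjusted p = 0.642 by edgeR). The adenosine receptor Adora2a was at -0.17 ± 0.082 (adjusted p = 0.586 by edgeR), the ecto-enzyme Nt5e, which makes adenosine from AMP, at 0.12, and adenosine kinase Adk at -0.02. Among 15 EHD and endocytic recycling genes, Ehd4 was the only one called and the median was 0.02. Its paralogs Ehd1 (-0.06), Ehd2 (-0.02) and Ehd3 (0.05) and Rab11a (-0.05), the GTPase on which Sh3bp5 acts, all had log2 fold changes within 0.06 of 0. Of 20 genes of VEGF, angiopoietin and BMP signalling 15 lay below 0 (median -0.05), against 49.1% of all genes tested, and 0 were called.

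**Figure D3:**
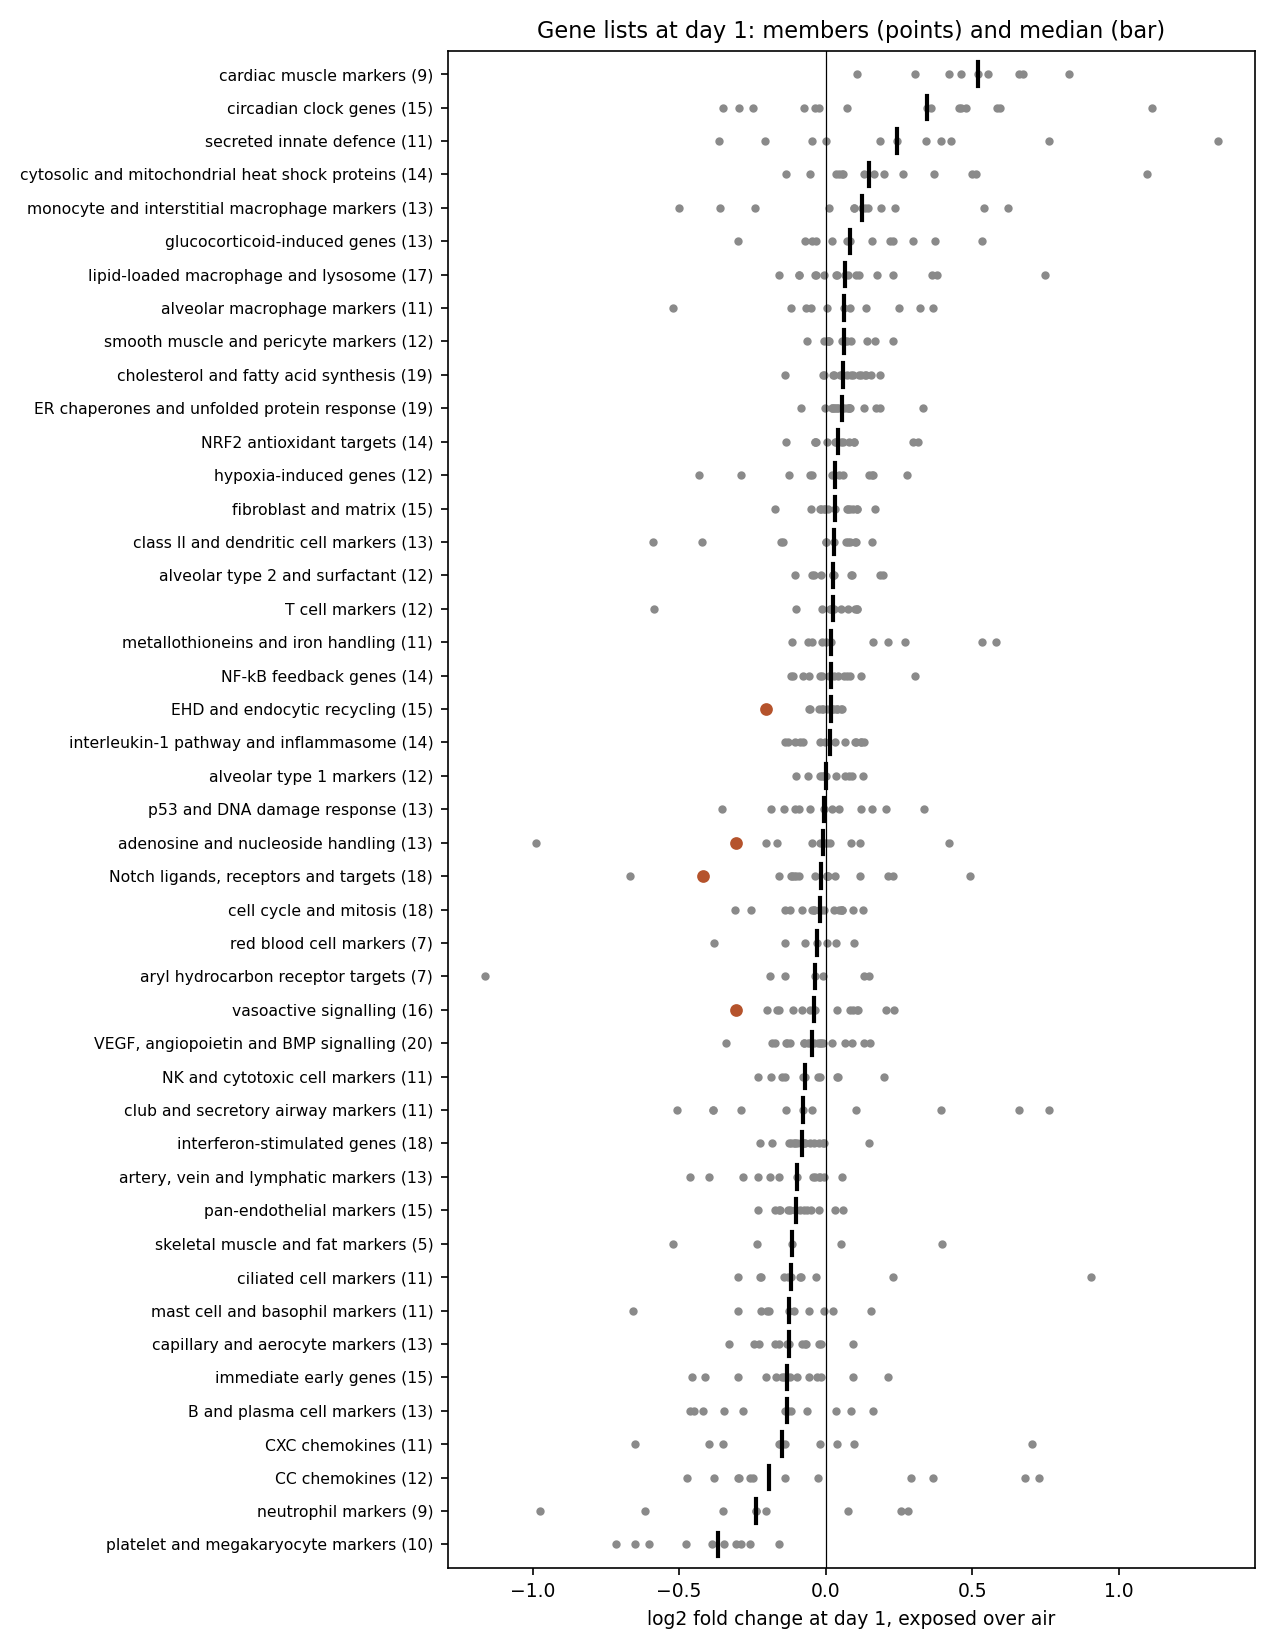
Log2 fold change at day 1, exposed over air (x axis), of the measured members of 45 gene lists (y axis, number of members in brackets), one grey point per gene, with called genes as large red points and the list median as a black bar. Dll4, Slc29a1 and Ehd4 are the only called list members, Slc29a1 being in 2 lists, and the endothelial lists have medians from -0.13 to -0.10.

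Several genes of macrophages and phagocytes lay on the higher side. With all 16 libraries edgeR called none of those named here, while DESeq2 called Ccl6, Mpeg1, P2rx4, Cybb, Gpnmb and Ctsd higher, with an adjusted p of 1.56e-05 for Ccl6 and of 0.00459 to 0.0493 for the others. Ccl6, a chemokine made by rodent macrophages, was at 166 CPM in the lowest exposed library, 284.8 CPM at the median and 359 CPM in the highest, against 139.7, 177 and 205 CPM in air libraries. Of the exposed libraries 7 lay above every air library, and library FSDE_259, at 166 CPM, lay below the air mean. The log2 fold change was 0.73 ± 0.134 (adjusted p = 0.134 by edgeR, and 0.313 with the pair summed). Mpeg1, a pore-forming protein of phagocytes, was at 112 ± 11.1 CPM in exposed and 85.3 ± 12.7 CPM in air lungs (log2 fold change 0.40 ± 0.083, adjusted p = 0.147 by edgeR), and the purinergic receptor P2rx4 had a log2 fold change of 0.32 ± 0.073 (adjusted p = 0.226 by edgeR).

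Exposed library FSDE_259 held the lowest sum of alveolar macrophage markers of the 16. The sum of the 14 listed alveolar macrophage markers was 504 CPM there, against 785 to 876 CPM in the other 7 exposed libraries and 675 to 779.7 CPM in air libraries. Of these markers 11 were measured. Chil3 was at 0 in all libraries and Marco, Chil3 and Ear1 were below the filter. Its sum of alveolar type 1 markers was also the lowest, at 7846 CPM, against 9084 to 9394 CPM in the other 7 exposed libraries and 8543 to 9486 CPM in air libraries. It also held the highest heart muscle sum of the 16, at 436 CPM. The part of this library in the calls was measured by leaving it out, and its tissue content as a source was not tested.

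Without library FSDE_259 edgeR called 13 genes higher (0.0906% of those tested). This fit kept FSDE_257 and FSDE_260 as separate libraries. FSDE_259 was the lowest exposed library for Ccl6, Gpnmb, Ctsd and Lipa. Leaving it out therefore raises their fold changes by itself, and the adjusted p of the 13 genes in this fit are no separate support. Ccl6 had a log2 fold change of 0.81 in this fit (adjusted p = 0.00408 by edgeR). Cybb, the catalytic subunit of the phagocyte NADPH oxidase, had a value of 0.33 (adjusted p = 0.00567), Ctsd, a lysosomal aspartic protease, 0.43 (adjusted p = 0.0138), and Lipa, the lysosomal acid lipase, 0.22 (adjusted p = 0.0266). The carbohydrate-binding protein Lgals3 had 0.46 (adjusted p = 0.0317) and Gpnmb, a membrane glycoprotein of lipid-loaded macrophages, 0.85 (adjusted p = 0.0452). Naaa, a lysosomal amidase of fatty acid ethanolamides, had 0.41 (adjusted p = 0.0232), and Lcp1, the actin-bundling plastin of leukocytes, 0.22 (adjusted p = 0.0259). The other 5 higher genes were Cxcr1, Smpdl3a, LOC103693683, Rn60_10_0705.2 and AABR07034260.1, with adjusted p of 0.00663 to 0.0324 by edgeR. In the fit of all 16 libraries Cybb (0.28, adjusted p = 0.226 by edgeR), Ctsd (0.36, 0.312), Gpnmb (0.75, 0.318), Lcp1 (0.18, 0.401), Lgals3 (0.38, 0.403), Lipa (0.18, 0.367) and Naaa (0.31, 0.577) did not pass by edgeR. Each of these fold changes was larger once FSDE_259 was left out. Cybb, Naaa, Lcp1 and the other 5 higher genes apart from Cxcr1 were chosen after their values without FSDE_259 were seen.

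Lists of these cells had more members above than below 0. Of 17 measured genes of lipid-loaded macrophages and lysosomes 11 lay above 0 (median 0.07), and of monocyte and interstitial macrophage markers 10 of 13 (median 0.12). Of alveolar macrophage markers 7 of 11 did (median 0.06), against 50.9% of all genes. With the pair summed, 11, 9 and 6 members of these lists lay above 0, the last near the share of all genes. Within the monocyte list, the scavenger receptor Cd163 (0.62) and the chemokine receptor Ccr2 (0.54) lay highest, and Ms4a7 (-0.50) and F13a1 (-0.36) lowest. Summed, lipid-loaded macrophage and lysosome genes ran from 3450 to 4627 CPM in exposed and from 3395 to 4196 CPM in air libraries, with 7 of 8 exposed libraries above the air mean and library FSDE_259 as the exception.

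Neutrophil genes did not point 1 way. Of 9 measured markers 6 lay below 0 (median -0.24), against 49.1% of all genes tested. Among the 6 were the granule proteins Ngp (log2 fold change -0.98 ± 0.324, adjusted p = 0.404 by edgeR) and Camp (-0.62 ± 0.223, 0.447). Cxcr1, a receptor for neutrophil chemokines, lay on the other side, from 4.57 to 14.4 CPM in exposed and from 2.02 to 8.33 CPM in air libraries (log2 fold change 0.97 ± 0.232, adjusted p = 0.253 by edgeR). Exposed library FSDE_259 was again the lowest of its group for Cxcr1. Cd177, a surface protein of neutrophils, ran from 10.5 to 59.6 CPM in exposed and from 5.09 to 14.2 CPM in air libraries, with its highest values of 59.6 and 56.2 CPM in libraries FSDE_260 and FSDE_257 (log2 fold change 1.49 ± 0.399, adjusted p = 0.327 by edgeR). Both Cxcr1 (adjusted p = 0.0120) and Cd177 (adjusted p = 0.0411) were called higher by DESeq2.

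Secreted defence proteins of the airway and alveolar lining tended to the higher side. Of 11 measured members 8 lay above 0 (median 0.24, and 0.21 with the pair summed), against 50.9% of all genes tested. In edgeR 0 were called, and 4 were higher at an unadjusted p under 0.05, against 4.61% of all genes tested. DESeq2 called 2 members higher, C3 (adjusted p = 0.00753) and Lcn2 (adjusted p = 0.0490). C3, the central complement component, was at 177 CPM in the lowest, 221 CPM in the median and 291.6 CPM in the highest exposed library, against 140.0, 177 and 186 CPM in air libraries. All but the lowest exposed library lay above every air library (log2 fold change 0.43 ± 0.096, adjusted p = 0.226 by edgeR). Hc, which encodes complement component C5, was at 44.4 ± 5.06 CPM in exposed and 32.4 ± 5.93 CPM in air lungs (log2 fold change 0.48 ± 0.099, adjusted p = 0.147 by edgeR). Lcn2, which withholds iron from bacteria, had a median of 167 CPM in exposed and 77.8 CPM in air libraries, and libraries FSDE_257 and FSDE_260 were the highest at 407 and 394 CPM (log2 fold change 1.34 ± 0.343, adjusted p = 0.318 by edgeR, and 0.545 with the pair summed). Pigr, the carrier of secreted IgA, had a log2 fold change of 0.24 ± 0.082 (adjusted p = 0.403 by edgeR).

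**Figure D4:**
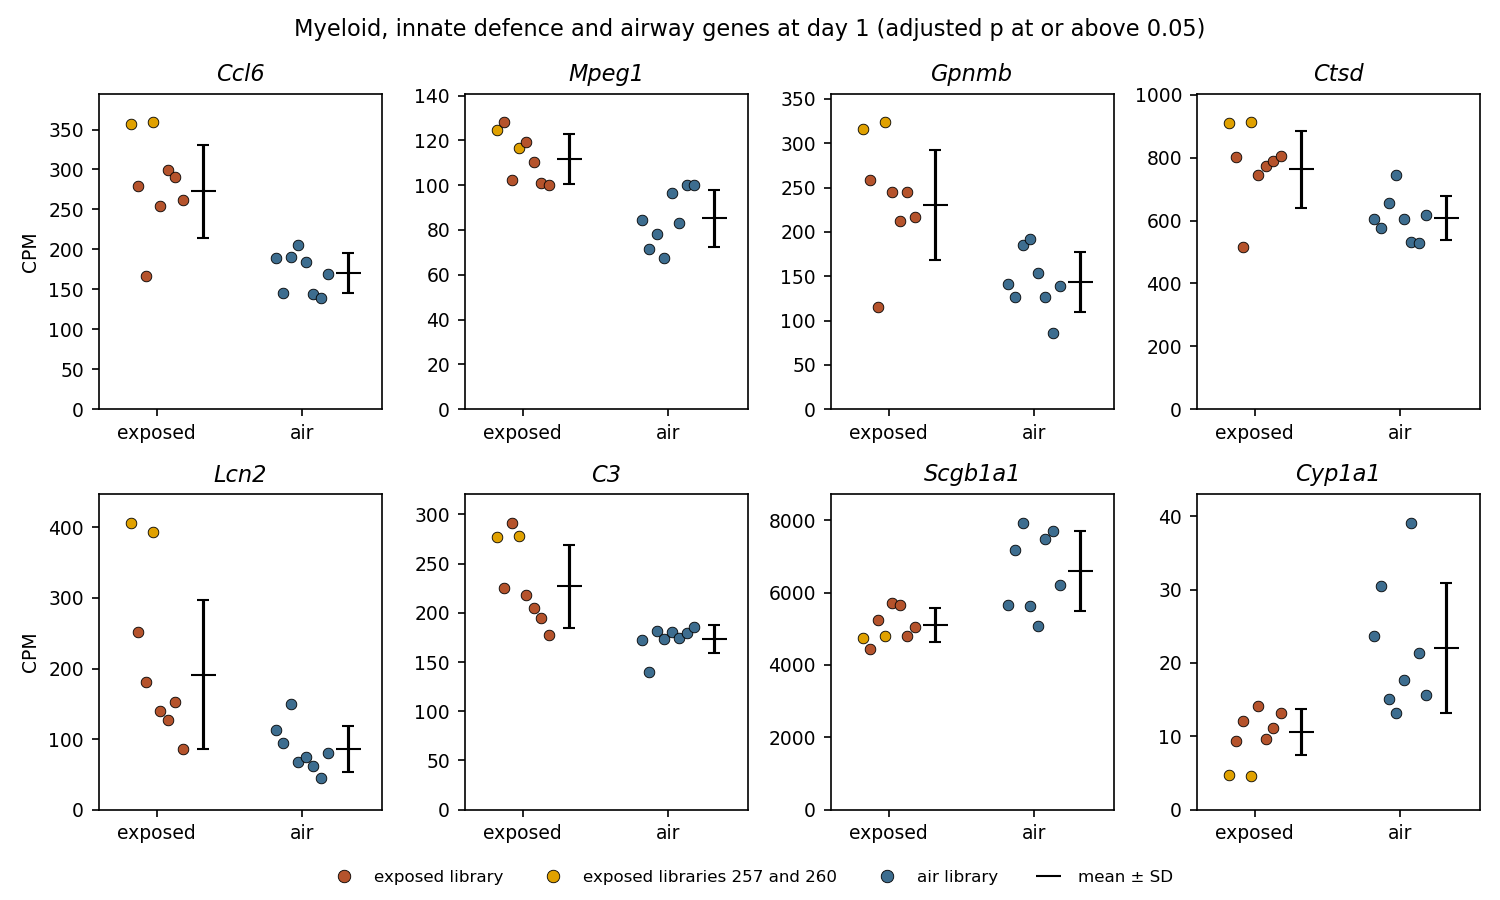
Level in CPM (y axis, from 0) of 8 genes that were called at day 1 by DESeq2 and not by edgeR, one point per library, exposed left and air right, with mean and SD beside each group (n = 7 and n = 8). Exposed library FSDE_259 is the low point for Ccl6, Gpnmb and Ctsd, libraries FSDE_257 and FSDE_260 in yellow are the highest for Lcn2, and all 8 exposed libraries lie below the air mean for Scgb1a1 and Cyp1a1.

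In the airway lining, the main secreted product of club cells lay lower in exposed lungs, and it passed by DESeq2 (adjusted p = 0.0133) but not by edgeR. Scgb1a1 ran from 4446 to 5723 CPM with a median of 4929.9 CPM in exposed libraries, and from 5070.2 to 7934 CPM with a median of 6687 CPM in air libraries. Each exposed value was below the air mean and the groups overlapped (log2 fold change -0.39 ± 0.089, adjusted p = 0.226 by edgeR). Scgb3a2, a related secretoglobin, had a log2 fold change of -0.29 ± 0.103 (adjusted p = 0.447 by edgeR), and the club cell cytochrome P450 genes Cyp2f4 and Cyp4b1 had values of -0.39 and -0.14. Lypd2, also of the club and secretory list, lay lowest at -0.51 (adjusted p = 0.226 by edgeR), and DESeq2 called it lower (adjusted p = 0.0411). On the higher side lay 4 members, among them the mucin Muc5b (0.39) and Bpifa1 (0.76). Of 11 measured members 7 were below 0 (median -0.08), against 49.1% of all genes tested.

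Ciliated cell markers divided in the same uneven way, with 9 of 11 below 0 (median -0.12), against 49.1% of all genes tested. Dnah5, a heavy chain of the outer dynein arms of cilia, was at 10.8 ± 2.93 CPM in exposed and 5.77 ± 1.68 CPM in air lungs, the largest log2 fold change of that list at 0.90 ± 0.191 (adjusted p = 0.166 by edgeR). Lrp2, the large endocytic receptor megalin, had a log2 fold change of 0.32 ± 0.067 (adjusted p = 0.147 by edgeR). Both passed once exposed library FSDE_264, the lowest of its group for each gene, was left out, with an edgeR adjusted p of 0.0183 for Dnah5 and 0.0159 for Lrp2. Dropping its lowest exposed library raises each fold change by itself, so these adjusted p are no separate support. Mcpt8l2, of the mast cell protease family (log2 fold change -0.76, adjusted p = 0.0183 by edgeR, chosen after its values were seen), and Nostrin (-0.26, adjusted p = 0.0159) were called lower in that fit. Library FSDE_264 held 21.0 CPM of the mast cell protease Mcpt2, against 6.40 to 8.21 CPM in the other 7 exposed and 7.62 to 18.2 CPM in air libraries, and its part in the calls beyond this fit was not tested.

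No gene of the response to aromatic hydrocarbons was called by edgeR. Cyp1a1 ran from 4.60 to 14.1 CPM in exposed libraries with a median of 10.4 CPM, and from 13.2 to 39.1 CPM in air libraries with a median of 19.5 CPM. The exposed mean was 47.98% of the air mean, 8 of 8 exposed libraries lay below the air mean and the groups overlapped between 13.2 and 14.1 CPM (log2 fold change -1.16 ± 0.272, adjusted p = 0.253 by edgeR). DESeq2 called it lower (adjusted p = 0.0246). The 2 lowest values, 4.60 and 4.67 CPM, were those of libraries FSDE_260 and FSDE_257, and with the pair summed the edgeR adjusted p was 0.403. Cyp1b1 was at 0.13 ± 0.117 (adjusted p = 0.797 by edgeR), Tiparp at 0.15 and the receptor Ahr at -0.19. Of 7 measured members 5 lay below 0, against 49.1% of all genes tested. Among 14 NRF2 antioxidant targets 10 lay above 0 (median 0.04), against 50.9% of all genes tested. They were led by the aldo-keto reductase Akr1b8 (0.32 ± 0.108, adjusted p = 0.404 by edgeR) and the haem oxygenase Hmox1 (0.30 ± 0.095, 0.398), while Nqo1 was at -0.04.

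Chemokines and early response genes had no member called by edgeR with all 16 libraries, and DESeq2 called Ccl6 among them. Cxcl1 was at 0.70 ± 0.243 (adjusted p = 0.414 by edgeR) and Ccl20 at 0.68, but 8 of 11 CXC and 8 of 12 CC chemokines lay below 0, and Ccl2 was at -0.30 ± 0.165 (adjusted p = 0.632 by edgeR). Il1b had 19.6 to 37.4 CPM in exposed and 19.3 to 39.9 CPM in air libraries, with medians of 27.1 and 29.8 CPM. Of 15 immediate early genes 13 lay below 0 (median -0.13), with Egr1 at -0.41 ± 0.127 (adjusted p = 0.387 by edgeR). Of 18 interferon-stimulated genes 17 lay below 0 (median -0.08), against 49.1% of all genes tested. With the pair summed 13 of them did, and the median was -0.02.

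Markers of blood and lymphoid cells went both ways. Of 12 T cell genes 9 lay above 0 (median 0.03), and 6 did with the pair summed (median 0.0083). All 10 measured platelet and megakaryocyte genes lay below 0 (median -0.37), 6 of them at an unadjusted edgeR p under 0.05. Of all genes tested 49.1% lay below 0 and 4.06% were lower at that threshold. Pf4 and Ppbp are members of this list and of the CXC chemokine list. Itga2b, the platelet fibrinogen receptor subunit, was at -0.35 ± 0.118 (adjusted p = 0.404 by edgeR). Summed over the 11 listed platelet genes, the level was low, from 30.5 to 44.3 CPM in exposed and from 33.0 to 63.4 CPM in air libraries. Of 13 B and plasma cell genes 10 lay below 0 (median -0.13), with the immunoglobulin chain Ighm at -0.35 ± 0.118 (adjusted p = 0.413 by edgeR), and the sum of each exposed library was below the air mean of that sum. Of 11 mast cell and basophil genes 9 lay below 0 (median -0.13), and of 7 red blood cell genes 4 lay below 0 (median -0.03) and 3 did with the pair summed (median 0.0043). Haemoglobin genes took 0.509% to 0.884% of counts in exposed and 0.560% to 0.861% in air libraries.

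Protein folding genes leaned the other way. Of 19 endoplasmic reticulum chaperone and unfolded protein response genes 17 lay above 0 (median 0.06). Of 14 heat shock proteins 12 did (median 0.15), against 50.9% of all genes tested. Sdf2l1, a chaperone cofactor of the endoplasmic reticulum, was at 0.33 ± 0.088 (adjusted p = 0.310 by edgeR) and Hspa4l, a heat shock protein of the Hsp110 family, at 0.51 ± 0.132 (adjusted p = 0.270 by edgeR). Of 19 genes of cholesterol and fatty acid synthesis 16 lay above 0 (median 0.06). Circadian clock genes had a median of 0.35 and widely spread libraries, with the clock output gene Dbp from 6.79 to 117 CPM in exposed and from 7.28 to 60.3 CPM in air libraries (adjusted p = 0.656 by edgeR), and the hour at which the lungs were taken is not given in the labels.

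The day 1 differences were set against those of the same exposure at days 7 and 27 in 1 edgeR fit of the 48 libraries. Each day has its own air group. The exposure effect at day 1 differed from that at day 27 in 74 of 14852 genes (0.498%), and in 9 of 14878 once the 4 closest pairs of the series were summed. It differed from that at day 7 in 0 genes in edgeR (1114 at an unadjusted p under 0.05, and 0 and 837 with the pairs summed).

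Of the 4 genes called at day 1, Ehd4 and Dll4 differed between days 1 and 27. Ehd4 had log2 fold changes of -0.20 ± 0.035 at day 1, -0.10 ± 0.026 at day 7 and 0.04 ± 0.035 at day 27 (difference of day 1 from day 27 -0.24 ± 0.039, adjusted p = 0.00230 by edgeR, and 0.0104 with pairs summed). Dll4 had -0.42 ± 0.072, -0.10 ± 0.051 and -0.02 ± 0.075 on those days (difference from day 27 -0.40 ± 0.0995, adjusted p = 0.0462 by edgeR, and 0.0924 with pairs summed). Sh3bp5 stood at -0.08 at day 7 and -0.04 at day 27 (difference from day 27 -0.23 ± 0.062, adjusted p = 0.0674 by edgeR). Slc29a1 stood at 0.01 at day 7 and -0.16 at day 27 (difference from day 27 -0.14 ± 0.070, adjusted p = 0.341 by edgeR), and its difference from day 7, -0.31 ± 0.070, did not pass either (adjusted p = 0.178 by edgeR).

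Efnb2, the arterial ephrin, and Cxcr1 also differed between days 1 and 27. Efnb2 had log2 fold changes of -0.16 ± 0.047, 0.09 ± 0.045 and 0.14 ± 0.063 at days 1, 7 and 27 (difference from day 27 -0.30 ± 0.075, adjusted p = 0.0462 by edgeR, and 0.120 with pairs summed). Cxcr1 had 0.97 ± 0.232, 0.28 ± 0.223 and -0.26 ± 0.135 (difference from day 27 1.23 ± 0.297, adjusted p = 0.0437 by edgeR, and 0.1003 with pairs summed). For both, the difference between the days passed in edgeR while the effect at day 1 or at day 27 alone did not, and DESeq2 called Cxcr1 at day 1 (adjusted p = 0.0120).

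**Figure D5:**
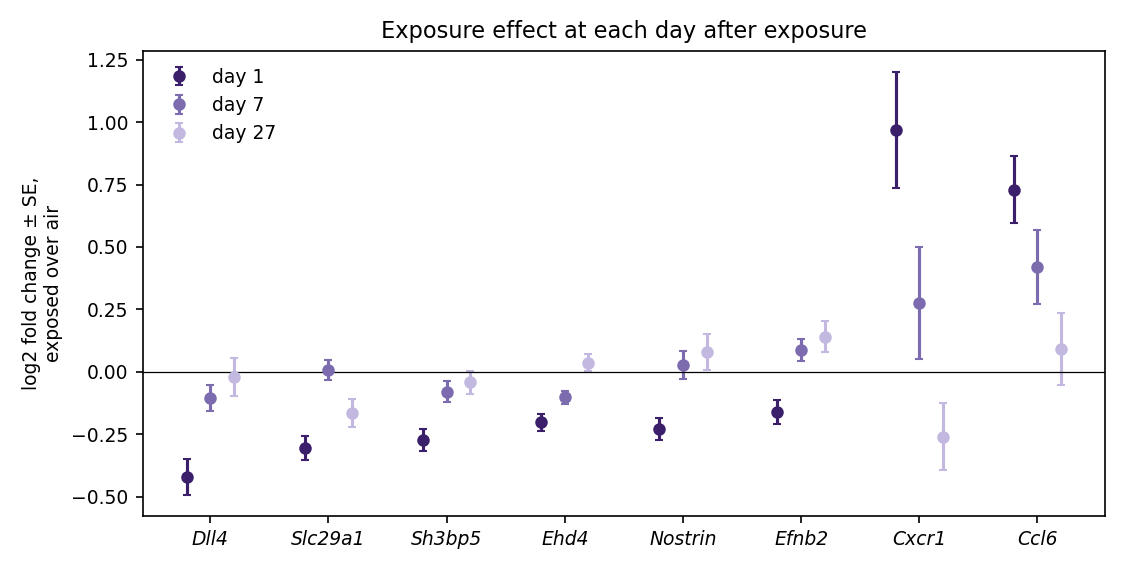
Log2 fold change, exposed over air, with its SE (y axis) at days 1, 7 and 27 (dark to light) for the 4 called genes and 4 others that edgeR did not call at day 1 (x axis); each day has 8 exposed and 8 air libraries. Dll4 and Ehd4 lie at -0.42 and -0.20 at day 1 and at -0.02 and 0.04 at day 27.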

How the data were processed

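Per the labels' protocols, pieces of lung gave RNA for stranded, poly(A)-selected libraries. Salmon 1.10.1, STAR 2.6.1d, Trim Galore 0.6.7, cutadapt 3.4, bcl2fastq 2.19 and build Rnor_6.0 are named in the submitters' processing notes; settings are not given in the sources used here. The authors deposited expected counts per gene, not normalized, in 1 table per day; 5.63% of day 1 values were not whole (tolerance 1e-06), so values were rounded before testing.

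Groups and animal numbers come from the labels, which state that rats were housed in pairs but give neither cages nor batches. P-values measure the spread between libraries. The day 1 table was tested with edgeR 4.0.16 in R 4.3.3 (TMM factors, filterByExpr, robust quasi-likelihood F test, Benjamini-Hochberg adjustment, threshold 0.05); SE is the log2 fold change divided by the square root of F. CPM use TMM factors. Days were compared in 1 fit of the 3 tables. Alternatives were RLE size factors, other filters, DESeq2 1.42.0, limma-voom 3.58.1, 1 surrogate variable from sva 3.50.0, covariates, the pair summed or averaged, and each library left out. The steps were tested on simulated data.

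Of 611 genes in 45 lists, 576 were matched by name and 10 by a RefSeq synonym; of 32285 identifiers 4671 share a name, and the most abundant stood for a listed name. The libraries, lists and tests were chosen with earlier results of these data known. Named genes are the called genes, the 10 uncalled genes with the smallest p in each direction (mean of at least 1 CPM, 1 identifier, with 7 or more exposed libraries on 1 side of the air mean), up to 3 members per list, 12 marker genes, the 5 largest DESeq2 calls per direction and 5 genes per contrast between days; other list members are given with their log2 fold change, and the remaining named genes were picked with values known. Depth, 11340284 to 13562855 counts per library, limits the precision for genes near 1 CPM.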

Additional observations from a re-analysis of the deposited data

Results flagged for a closer look

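A library that stood apart from the rest of its group by Dixon's gap criterion was found in 22 of 334 groups of 8 values checked, where chance flags about 1 in 20 groups.

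Among exposed libraries, library FSDE_259 was far below the others for 3 macrophage and lysosome genes, with Ctsd at 515 CPM (next lowest 745 CPM), Lipa at 134 CPM (164 CPM) and Cd68 at 37.1 CPM (59.9 CPM). Library FSDE_263 was lowest for Dll4 at 99.3 CPM (119.8 CPM) and highest for the immunoglobulin chain Igkc at 405 CPM (257.1 CPM), the joining chain Igj at 63.7 CPM (38.9 CPM) and AABR07065750.2 at 2.22 CPM (1.33 CPM). Library FSDE_264 was lowest for Lrp2 at 96.6 CPM (118 CPM) and highest for Mcpt2 at 21.0 CPM (8.21 CPM) and the complement protease Cfd at 10.1 CPM (6.28 CPM). P2rx4 stood at 62.1 CPM in library FSDE_262 (52.5 CPM), and Ccl2 at 3.98 CPM in library FSDE_260 (2.80 CPM).

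Among air libraries, library AIR_251 was highest for Sdf2l1 at 27.2 CPM and for Nqo1 at 59.1 CPM, lowest for the matrix protein Postn at 940.0 CPM, and lowest in its share of mitochondrial counts at 2.82%. Library AIR_252 was highest for Bpgm at 62.5 CPM and Spp1 at 23.8 CPM. C3 was lowest in library AIR_250 at 140.0 CPM. Aco1 was highest in library AIR_253 at 78.2 CPM, Ryr2 in library AIR_255 at 11.4 CPM and the T cell receptor partner Cd28 in library AIR_249 at 15.1 CPM.

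The exposure effect differed between days 1 and 27, by the edgeR contrast, for 9 named genes. The day 1 log2 fold change minus that of day 27 was -0.40 for Dll4, -0.24 for Ehd4, -0.30 for Efnb2 and -0.27 for the alarmin Il33. It was -0.29 for the splicing factor Luc7l2, -0.30 for the ubiquitin ligase Smurf2, -0.29 for the translation factor Eif5b, 0.30 for the glycolytic enzyme Gapdh and 1.23 for Cxcr1. With the 4 closest pairs summed, edgeR adjusted p were 0.0104 to 0.0324 for Ehd4, Eif5b, Smurf2, Gapdh and Luc7l2 and 0.0589 to 0.120 for Il33, Dll4, Cxcr1 and Efnb2.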

How the results depend on the processing

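The count of 4 genes called at day 1 became 0 with libraries FSDE_257 and FSDE_260 summed or averaged, 2 without a filter on low counts, 42 by DESeq2, 1 with 1 surrogate variable and 2 (1 higher, 1 lower) when log2 library totals entered as a covariate; it ran from 0 to 17 when 1 library was left out. It was 4 with RLE size factors, with a mean of at least 1 CPM and by limma-voom, which shared 3 of the 4, and 3 with the ribosomal protein level as a covariate. The 4 called genes had log2 fold changes below 0 in each of these 26 alternatives. The 74 genes that differed between days 1 and 27 became 9 with the 4 closest pairs summed, and were 84 with RLE size factors and 73 with a mean of at least 1 CPM.

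Signs near 0 turned for 4 marker genes, none of them past the threshold. Nqo1 was at 0.0015 and Il1b at 0.039 with 1 surrogate variable. Sftpc was at -0.026 when log2 library totals entered as a covariate, and from -0.013 (without FSDE_264) to 0.050 with 1 library left out, -0.00069 without AIR_255 included. Spp1 was at 0.098 by limma-voom, 0.49 with 1 surrogate variable and 0.22 with the ribosomal protein level, and from -0.28 to 0.44 (without AIR_252) with 1 library left out, with 0.013 without FSDE_259. With the pair averaged, exposed libraries differed from air by 0.213% in the share of the 10 most abundant genes and by 1.38% in that of haemoglobin genes, against -0.00854% and -2.15% with 8 libraries each. The cause was not tested. No paired analysis was possible because the groups share no animal numbers. At this depth, a gene near 1 CPM rests on about 12 counts per library.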
